A study of Mus musculus with 17 samples.

Results

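The genes described here encode inhibitory receptors of lymphocytes and the surface ligands that engage them, measured in cells sorted from male NOD mice, an inbred strain in which lymphocytes fill the lacrimal glands, as in human Sjögren's syndrome. Of 10 genes named for this purpose (the receptors Pdcd1, Ctla4, Lag3, Havcr2, Tigit, Btla and Cd160 and the ligands Cd274, Pdcd1lg2 and Cd200), 9 were measured among the 17097 genes of the array table. Each gene was represented by the probe set that named it alone and had the highest mean over the arrays; Tigit had no such probe set and was not analysed here. Each of the other members had 1 such probe set except Cd160, which had 4. The 17 arrays came from 4 samples of CD4+ T cells and 4 of B cells of the lacrimal gland, 3 samples of CD4+ T cells and 3 of B cells of the spleen, and 3 samples of gland epithelial cells.

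No group was treated and none carried an engineered allele, so every group shared the NOD background. T cells had been gated on CD3 and CD4, B cells on B220 without CD3, and epithelial cells on CD326 without CD45, at a stated purity above 99%. The gland donors were 16 weeks old. For spleens the sample labels give 16 weeks and the series' design gives 4 weeks, and if the latter holds, tissue and age cannot be told apart. Glands were dissociated mechanically and with enzymes, and no such step is stated for spleens, so tissue and preparation cannot be told apart either. The labels do not say whether samples of a group came from separate or pooled animals, and p-values then measure only the spread between these samples.

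Inhibitory receptors restrain lymphocytes that have met antigen. PD-1, the product of Pdcd1, binds PD-L1 (Cd274) and PD-L2 (Pdcd1lg2) and recruits phosphatases that blunt antigen receptor and costimulatory signals, while CTLA-4 takes the ligands CD80 and CD86 away from the activating receptor CD28. Activation of a T cell switches on several of these receptors, which remain high under lasting stimulation and on regulatory and follicular helper T cells. In lacrimal and salivary glands affected by autoimmunity, infiltrating lymphocytes and the epithelium around them can both carry the ligands.

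The promoters of 4 members that rose together in gland T cells are shown as the 250 bases before each annotated RefSeq gene start (GRCm38.p6), written 5′ to 3′ on the gene's strand, with matches to a searched motif in capitals. Pdcd1, Ctla4, Havcr2 and Pdcd1lg2 were chosen because the window ended at the outermost start of the gene. RefSeq promoter entries matched 9 of the 10 named genes, with 2 starts for Cd160, while Lag3 was not matched.
Pdcd1, chr1:94052554-94052803, - strand: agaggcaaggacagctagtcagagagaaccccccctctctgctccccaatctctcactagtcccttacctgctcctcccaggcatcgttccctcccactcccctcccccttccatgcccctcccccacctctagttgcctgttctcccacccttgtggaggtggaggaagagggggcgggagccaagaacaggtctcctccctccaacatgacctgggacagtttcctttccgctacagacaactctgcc
Ctla4, chr1:60908775-60909024, + strand: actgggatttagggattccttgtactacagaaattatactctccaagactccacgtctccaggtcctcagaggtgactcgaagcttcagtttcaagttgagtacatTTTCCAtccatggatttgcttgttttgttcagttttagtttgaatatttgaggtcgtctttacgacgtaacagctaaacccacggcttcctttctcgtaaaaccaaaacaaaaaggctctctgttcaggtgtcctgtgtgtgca
Havcr2, chr11:46454681-46454930, + strand: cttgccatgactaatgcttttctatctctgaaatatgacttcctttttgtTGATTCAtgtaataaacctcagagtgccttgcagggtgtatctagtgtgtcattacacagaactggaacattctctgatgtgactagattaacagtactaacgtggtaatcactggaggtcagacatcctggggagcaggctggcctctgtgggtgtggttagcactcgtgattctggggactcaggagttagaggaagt
Pdcd1lg2, chr19:29410669-29410918, + strand: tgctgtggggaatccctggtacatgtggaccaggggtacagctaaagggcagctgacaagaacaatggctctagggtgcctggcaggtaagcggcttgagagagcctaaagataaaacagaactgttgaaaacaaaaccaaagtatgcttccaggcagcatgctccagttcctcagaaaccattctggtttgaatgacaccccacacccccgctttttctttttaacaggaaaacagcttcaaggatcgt

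Both strands were searched for AP-1 (TGANTCA), an interferon gamma activated site (GAS, TTCNNNGAA), an interferon response element and the core bound by NFAT (TGGAAA). The capitals in the Havcr2 window mark an AP-1 match from 200 to 194 bases before the start, and 6.75% of 32851 promoters held such a match. Those in the Ctla4 window mark an NFAT core on the opposite strand, from 144 to 139 bases before the start, beside 18.6% of all promoters. A GAS match lay in 1 of the 2 Cd160 windows and is found in 7.02% of all promoters. The Pdcd1, Pdcd1lg2, Cd274, Btla, Cd200 and Tigit windows held none of these letters, and the interferon response element, present in 2.98% of all promoters, was in 0 of the 10 member windows. These matches describe the letters of a short window and do not show binding. The coding genes lay on chromosome 1 (Pdcd1 and Ctla4), 3 (Cd160), 6 (Lag3), 11 (Havcr2), 16 (Btla and Cd200) and 19. Cd274, at positions 29362107 to 29388095, and Pdcd1lg2, at positions 29410919 to 29472927, are neighbours on chromosome 19.

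Values are the deposited log2 levels, spanning 0.49 to 12.95 with a median of 4.71 over the table, and a difference of 1 between arrays for a probe set is a doubling. Arrays of a group correlated with r between 0.977 and 0.996. T lineage markers (9 genes) averaged 9.69 to 9.81 in T cell arrays and 3.97 to 4.41 in B cell arrays, and B lineage markers (9 genes) averaged 9.86 to 10.09 in B cell arrays and 4.07 to 4.60 in T cell arrays. Epithelial markers (9 genes) averaged 9.14 to 9.65 in epithelial arrays and 3.63 to 6.07 in lymphocyte arrays. The table holds no detection call for a probe set, so a level near or below the median is not shown to be above background; a difference from such a level is given as a log2 difference of signals, without a fold. Epithelial replicate 1 stood apart from its group. Its level of Ptprc, which encodes CD45, was 9.62, against 2.42 and 2.36 in the other replicates, although the gate was negative for CD45. The members' epithelial results are therefore given with and without it.

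In T cells of the gland, 7 of the 9 members were higher than in spleen T cells and 1 was lower, Cd160, by a rule of adjusted p under 0.05 in limma over all genes and at least a 2-fold difference; 5.35% of all genes were called higher and 1.62% lower. The receptors Pdcd1, Ctla4, Lag3 and Havcr2 and all 3 ligands, Cd274, Pdcd1lg2 and Cd200, rose, and Btla did not pass the test. The median difference over the members was 2.55, against -0.03 over all genes. Gland and spleen arrays did not overlap for 9 of 9 members, as for 34.6% of all genes. In sorted bulk samples a larger share of cells carrying a transcript and more transcript in each cell cannot be told apart.

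Lag3, whose product binds MHC class II and restrains T cell expansion, had log2 levels of 9.06, 9.11, 9.18 and 9.07 in gland T cells and 4.67, 5.02 and 5.0 in spleen T cells. The lowest gland array was far above the highest spleen array, and spleen T cells lay near the median of the whole table. The difference was 4.21 (SE 0.12, adjusted p = 1.13e-12). Gland B cells, at 4.92, 4.75, 4.60 and 4.69, overlapped with spleen T cells, and spleen B cells (3.85 to 4.32) overlapped with epithelial cells (4.00 to 4.12).

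Ctla4 stood at 11.45, 11.32, 11.24 and 11.47 in gland T cells and at 7.83, 8.03 and 8.36 in spleen T cells. Every T cell array was above every other array, and the gland and spleen arrays were well apart. The difference was 3.30 (SE 0.28), or 9.83-fold (adjusted p = 3.2e-07). Pdcd1 was at 9.68, 9.67, 9.83 and 9.81 in gland T cells and at 6.67, 7.37 and 6.64 in spleen T cells, a difference of 2.86 (SE 0.19), or 7.24-fold (adjusted p = 1.98e-08). Outside T cells the Pdcd1 signal was low in every array, between 3.35 and 4.21, with B cells and epithelium overlapping.

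Havcr2, which encodes the receptor TIM-3, had the values 5.92, 5.81, 5.82 and 5.18 in gland T cells and 3.14, 3.23 and 3.03 in spleen T cells. Replicate 4 was the lowest gland array and still well above the spleen. The difference was 2.55 (SE 0.35, adjusted p = 5.22e-05). In spleen T cells, B cells and the other epithelial replicates, Havcr2 lay between 2.66 and 3.72, below the table's median; epithelial replicate 1 read 4.50.

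Btla and Cd160, both receptors for HVEM (Tnfrsf14), followed another pattern. Btla was at 9.20, 9.53, 9.21 and 9.25 in gland T cells and 9.15, 8.84 and 9.0 in spleen T cells. The arrays were separate by a narrow margin and the difference of 0.30 (SE 0.24, 95% interval -0.20 to 0.81) was not called (adjusted p = 0.427). Cd160 read 6.18, 5.75, 5.81 and 5.57 in gland T cells and 6.93, 6.78 and 6.91 in spleen T cells, and fell by 1.05 on the log2 scale (SE 0.33, adjusted p = 0.03).

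The Cd160 call depended on the probe set and on single arrays. Of 4 Cd160 probe sets, 1456847_PM_at had the highest mean and represented the gene. The others, 1420066_PM_s_at, 1420067_PM_at and 1420396_PM_at, gave T cell differences of -0.11, 0.11 and -0.32, none of them called, and the mean of the 4 probe sets gave -0.34. Leaving out any of 6 of the 7 T cell arrays (all but gland replicate 1) ended the call, at differences between -1.10 and -0.96 and adjusted p between 0.0589 and 0.0866. The 3 other probe sets were called lower in B cells than in T cells, by 1.43, 1.22 and 1.02 in the gland and 1.79, 1.29 and 1.10 in the spleen (as sizes of the log2 difference). Their B cell group means, 3.07 to 4.52, were below the table's median and not shown to be above background. In T cells the means of 1420066_PM_s_at and 1420396_PM_at were near it (4.56 to 4.88), and those of 1420067_PM_at were 5.64 and 5.75. The probe set 1456847_PM_at was not called between B and T cells in either tissue. Statements on Cd160 therefore hold for a named probe set only.

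**Figure D1:**
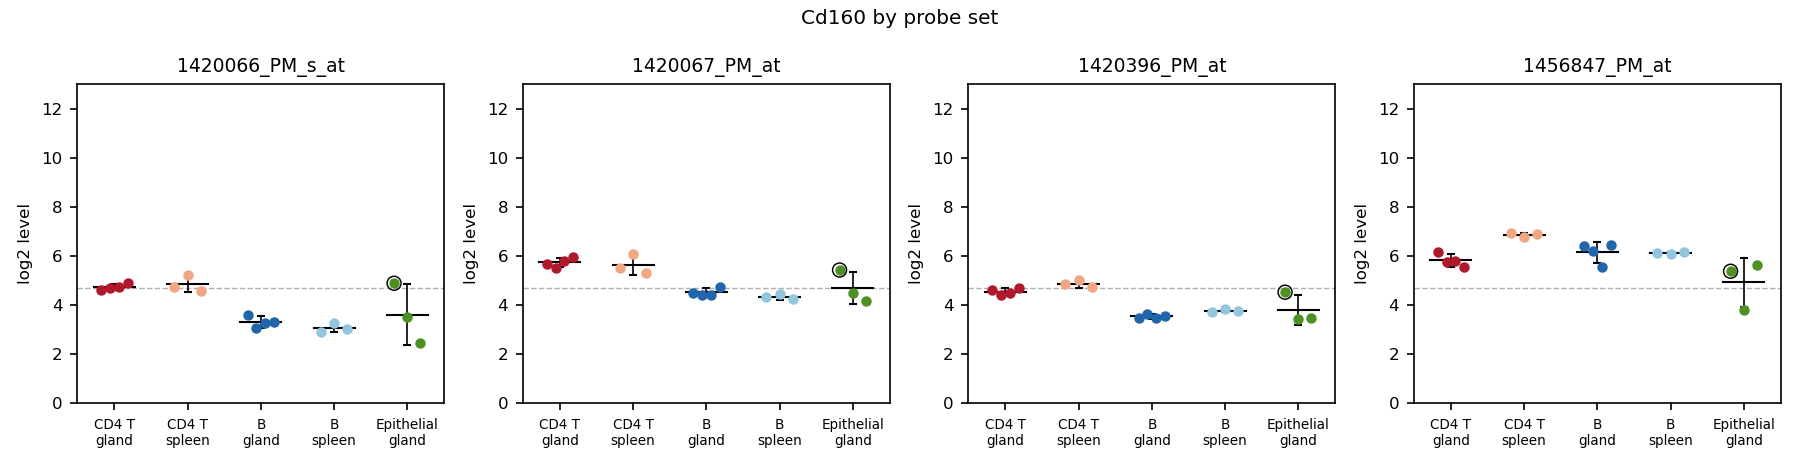
Log2 level of the 4 Cd160 probe sets (vertical axes) in each array (points), by group, with group means (lines) and SD (bars); the dashed line is the median of the whole table and the circled point is epithelial replicate 1. The probe set 1456847_PM_at separates spleen T cells (6.78 to 6.93) from gland T cells (5.57 to 6.18), while gland and spleen T cells overlap in 1420066_PM_s_at and 1420067_PM_at and differ by less than the call requires in 1420396_PM_at.

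T cells also carried ligand transcripts. Pdcd1lg2, encoding PD-L2, was at 7.07, 7.37, 7.07 and 7.24 in gland T cells and 4.32, 4.87 and 4.49 in spleen T cells, so the groups were well apart. It rose by 2.63 (SE 0.30, adjusted p = 8.32e-06). Cd200, whose product restrains myeloid cells through the receptor CD200R1, was at 9.92, 10.21, 10.08 and 10.18 in the gland and 8.29, 8.13 and 8.33 in the spleen, a difference of 1.85 (SE 0.11), or 3.60-fold (adjusted p = 5.92e-09). Cd274, encoding PD-L1, was at 10.10, 9.99, 9.94 and 10.07 in gland T cells and 8.74, 9.07 and 9.0 in spleen T cells. Its difference of 1.09 (SE 0.19), or 2.12-fold (adjusted p = 0.000486), fell below the 2-fold minimum without spleen T cell replicate 1 (0.99, adjusted p = 0.00453), which had the lowest spleen value; 6 members were called without that array.

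**Figure D2:**
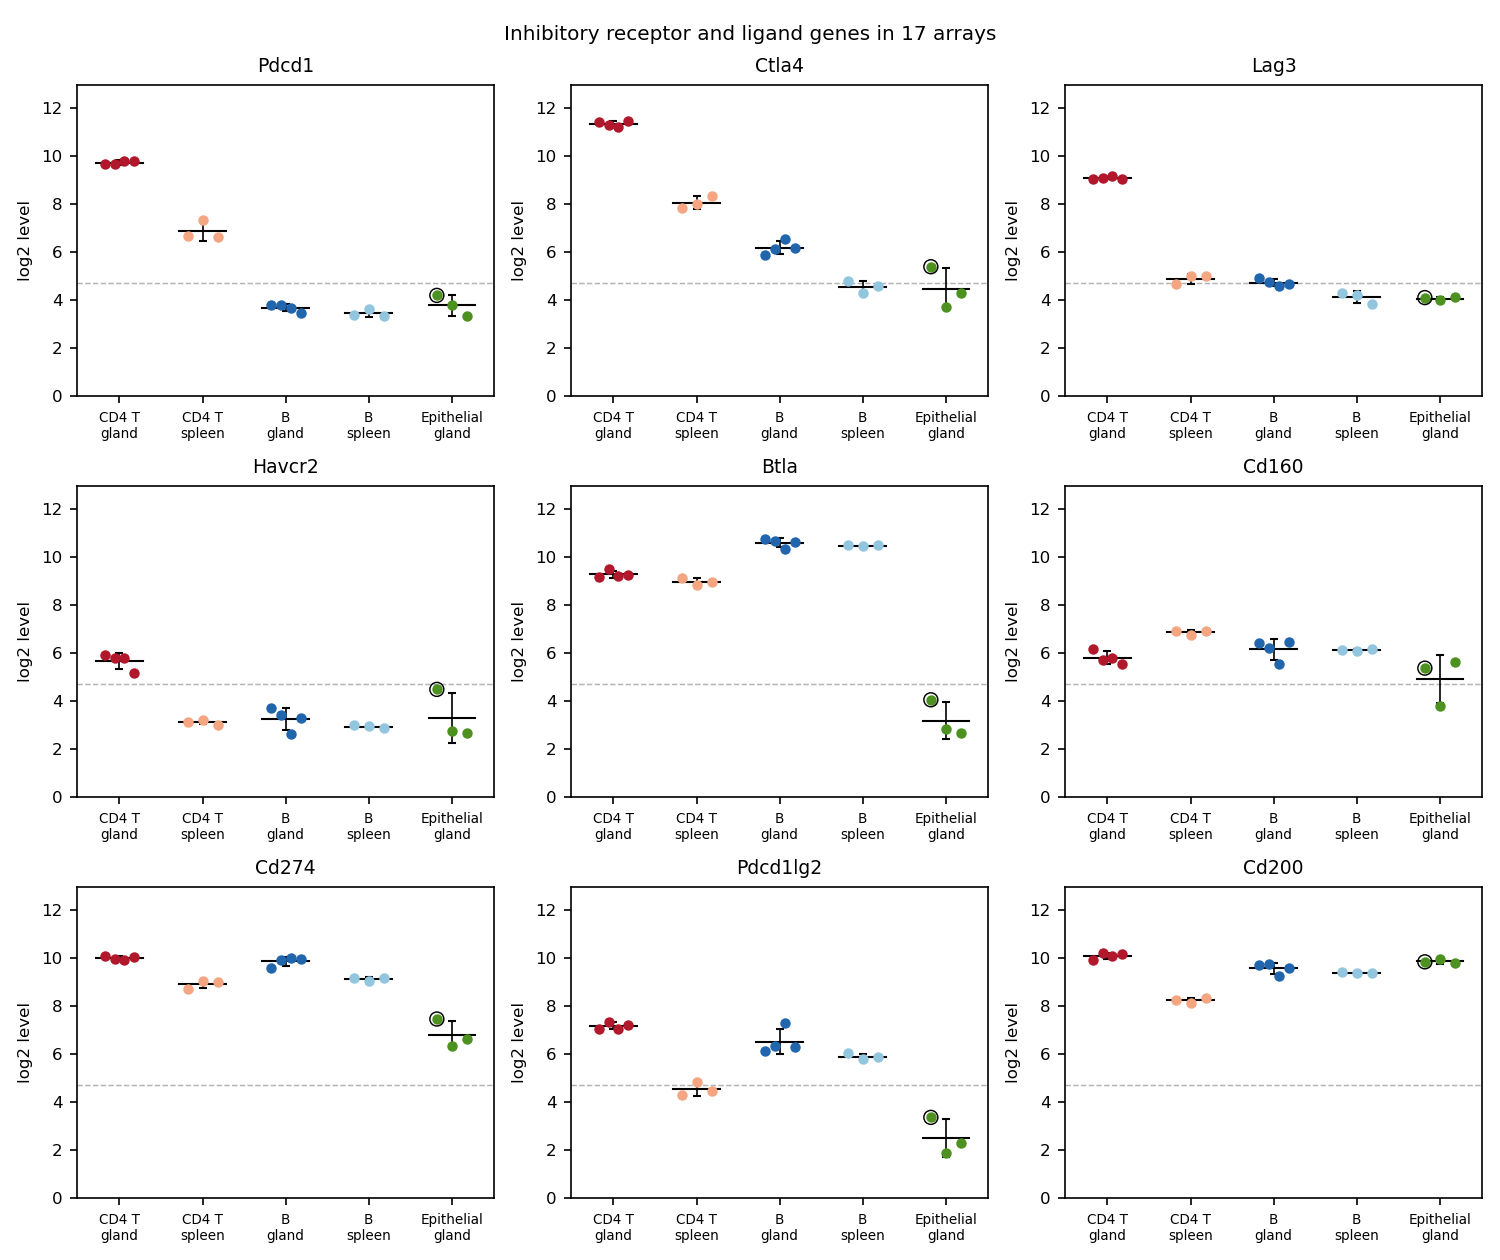
Log2 level (vertical axes) of the 9 measured members in each of 17 arrays (points), by sorted group, with group means (lines) and SD (bars); the dashed line is the median of the whole table and the circled point is epithelial replicate 1. Pdcd1, Ctla4, Lag3 and Havcr2 are highest in the 4 gland T cell arrays, Btla is highest in B cells, and Cd200 is at 9.80 to 9.997 in epithelium.

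Markers of T cell subsets were also higher on average in gland T cells, in lists that hold Ctla4 or Pdcd1 themselves. A list of 8 regulatory T cell genes averaged 9.80 to 9.92 in gland and 7.40 to 7.54 in spleen T cells. Of its genes 5 were called higher (Ctla4 itself, Foxp3, Il10, Capg and Itgae), while Ikzf2, Il2ra and Tnfrsf18 were not called. Il10 was at 9.26 to 9.47 in gland T cells and at 1.96 to 2.605, below the table's median, in spleen T cells. A list of 8 follicular helper genes averaged 8.10 to 8.23 and 6.29 to 6.56, with 5 called higher (Pdcd1 itself, Icos, Maf, Cxcr5 and Il21). Its genes Bcl6, Sh2d1a and Tox2 were not called. These counts stood beside 5.35% of all genes called higher. Plasma cell markers averaged 8.07 to 8.36 in gland and 6.19 to 6.67 in spleen T cells (4 of 5 higher: Jchain, Xbp1, Prdm1 and Irf4, of which activated T cells also express Prdm1 and Irf4). Jchain, which encodes the joining chain of secreted antibodies, was at 9.25, 8.32, 9.54 and 9.26 in gland and 4.26, 5.60 and 6.85 in spleen T cells, a difference of 3.52 (SE 0.76, adjusted p = 0.0027). Myeloid markers averaged 4.62 to 4.70 and 3.59 to 4.23 (1 of 9 higher) and dendritic cell markers 4.27 to 4.44 and 3.67 to 3.88 (1 of 7 higher). B lineage markers were called in 0 of 9 genes between the T cell groups by limma (2 had an unadjusted p under 0.05). Gland secretory genes (5 of 5 higher, 8.96 to 9.09 against 4.15 to 5.61) and epithelial genes (6 of 9 higher, 5.80 to 6.07 against 3.63 to 3.72) were also raised in gland T cells. No array value is a true zero, and the part of these lists in the members' differences was not tested.

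In B cells, only Ctla4 of the 9 members was called between gland and spleen, against 2.58% of all genes called higher and 1.6% lower. It stood at 5.88, 6.15, 6.57 and 6.18 in gland B cells and at 4.80, 4.32 and 4.60 in spleen B cells. The groups did not overlap, and the difference was 1.62 (SE 0.28, adjusted p = 0.00086). Both were below every T cell array. T lineage markers averaged 4.18 to 4.41 in gland B cells and 3.97 to 4.35 in spleen B cells, with 0 of 9 genes called by limma (2 had an unadjusted p under 0.05). Gland B cell replicate 3 had the highest Ctla4 and the lowest T marker average of its group. Cd8a was called higher in gland B cells, as were 5 of 9 epithelial genes (average 5.62 to 5.85 against 3.64 to 3.75) and 5 of 5 secretory genes (average 8.88 to 9.25 against 4.94 to 5.54). Dendritic cell markers averaged 4.75 to 5.09 in gland and 4.31 to 4.49 in spleen B cells, with Flt3 and Fscn1 called higher (2 of 7). Fscn1 was at 7.64 to 8.28 in gland B cells, 5.53 to 6.42 in spleen B cells and 8.69 to 8.94 in epithelium. The plasmacytoid marker Ccr9 was higher by 2.13 (1 of 3). Ccr9 varied in gland B cells, at 8.88, 8.54, 5.87 and 7.34, against 5.70, 5.18 and 5.70 in spleen B cells. The other genes of that list, Tcf4 and Ly6d, were not called, and Ly6d was at 9.73 to 10.22 in gland and 10.50 to 10.63 in spleen B cells. The part of these lists in the Ctla4 difference was not tested.

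The other members differed by less than 2-fold in B cells. By adjusted p alone 3 members passed (Ctla4, Lag3 and Cd274), as did 17.7% of all genes. Cd274 read 9.60, 9.94, 10.01 and 9.97 in the gland and 9.19, 9.05 and 9.18 in the spleen, separate groups with a difference of 0.74 (SE 0.19, 1.67-fold, adjusted p = 0.0127). Lag3 differed by 0.61 (SE 0.12, adjusted p = 0.0016). Pdcd1lg2 read 6.13, 6.35, 7.30 and 6.31 in gland B cells and 6.05, 5.79 and 5.88 in spleen B cells. Replicate 3 was well above the others; the difference of 0.62 (SE 0.30, adjusted p = 0.186) was 0.36 without it (adjusted p = 0.453). Cd200 was at 9.72, 9.76, 9.28 and 9.60 against 9.44, 9.37 and 9.39, overlapping groups with a difference of 0.19 (95% interval -0.05 to 0.42, adjusted p = 0.283). Gland B cell replicate 3 was the highest or the lowest of its group for 8 of 9 members. Btla, which resting B cells carry, was at 10.33 to 10.77 in gland and 10.47 to 10.50 in spleen B cells, a difference of 0.12 (SE 0.24) that was not called.

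The gland difference of T cells was compared with that of B cells as an interaction in the same limma fit. It was larger in T cells for 6 of 9 members and smaller for 0, with 3.87% of all genes called in the first direction and 1.22% in the second. The difference of differences was 3.59 for Lag3 (SE 0.16, adjusted p = 8.63e-10), 2.63 for Pdcd1 (SE 0.27), 2.23 for Havcr2 (SE 0.49) and 1.68 for Ctla4 (SE 0.40, adjusted p = 0.0116). Among ligands it was 2.01 for Pdcd1lg2 (SE 0.43) and 1.66 for Cd200 (SE 0.15). For Cd274 it was 0.35 with a 95% interval of -0.23 to 0.92 (adjusted p = 0.517), an interval that spans an equal change and one almost 2-fold larger in T cells. Btla (0.19, interval -0.52 to 0.90) and Cd160 (-1.07, adjusted p = 0.187) were not called. Pdcd1 and Havcr2 were below the table's median in B cells of both tissues (3.35 to 3.83 and 2.66 to 3.72), levels not shown to be above background in either tissue, so their difference of differences sets the T cell change against signals that may not measure the transcript. Lag3 was below the median in spleen B cells (3.85 to 4.32) and near it in gland B cells (4.60 to 4.92). Ctla4 was near it in spleen B cells (4.32 to 4.80). The B cell changes of Lag3 and Ctla4 thus start from levels not shown to be above background either.

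**Figure D3:**
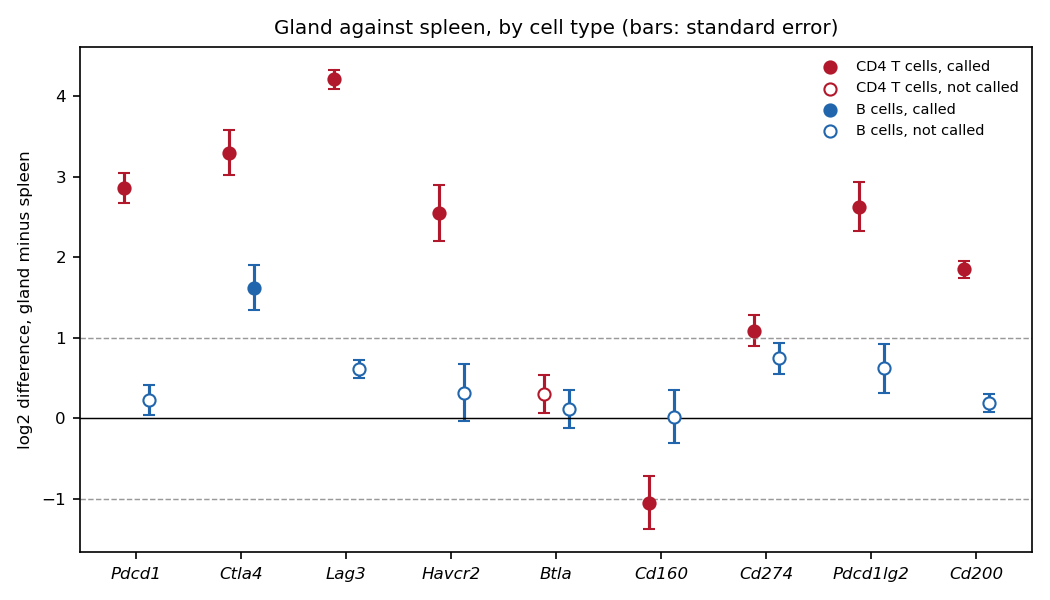
Log2 difference between gland and spleen (vertical axis) for each member in T cells (red) and B cells (blue), with standard errors; filled points passed the adjusted p and 2-fold rule, and dashed lines mark 2-fold. Lag3 has a difference of 4.21 in T cells and 0.61 in B cells, and Cd274 lies closer together at 1.09 and 0.74.

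Within the gland, B cells were lower than T cells for 4 members and higher for 1, where 5.97% of all genes were called lower and 3.73% higher. Pdcd1 was lower by 6.05 on the log2 scale, Ctla4 by 5.18 (36.2-fold), Lag3 by 4.36 and Havcr2 by 2.41, each with arrays that did not overlap. Btla was higher in B cells by 1.31 (SE 0.22, 2.48-fold, adjusted p = 0.000191). The ligands were not called. Cd274 differed by -0.14 (95% interval -0.52 to 0.23), with overlapping arrays. Cd200 differed by -0.51 (SE 0.10, 1.42-fold, adjusted p = 0.000967). Pdcd1lg2 differed by -0.66 (SE 0.28, adjusted p = 0.0876), and by -0.92 without gland B cell replicate 3 (adjusted p = 0.012).

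In the spleen 2 ligands were higher in B cells than in T cells. Pdcd1lg2 was higher in B than in T cells by 1.34 (SE 0.32, adjusted p = 0.00529), Cd200 by 1.15 (SE 0.12, 2.22-fold, adjusted p = 1.13e-06) and Btla by 1.5 (SE 0.25, 2.82-fold). Pdcd1 was lower in B cells by 3.42 and Ctla4 by 3.50. These 3 higher and 2 lower calls stood beside 4.63% and 4.52% of all genes. Lag3 was lower in spleen B cells by less than the 2-fold minimum (-0.77, SE 0.12, adjusted p = 0.000167). This comparison, the gland one and both tissue comparisons share the same arrays, so their values are not independent.

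Gland epithelial cells, which meet infiltrating lymphocytes, were lower than gland B cells for 5 members and lower than gland T cells for 7, with 10.4% and 10.6% of all genes called lower in these comparisons; 0 members were called higher, against 16.2% and 14.8% of all genes. Cd274 was at 7.47, 6.36 and 6.65 in epithelium, below every lymphocyte array and above the table's median. It was 3.05 lower on the log2 scale than in B cells (SE 0.19, 8.30-fold, adjusted p = 7.88e-10) and 3.20 lower than in T cells (9.17-fold). Pdcd1lg2, at 3.37, 1.88 and 2.29, was below the median of the table in every epithelial array and 4.01 lower than in B cells (SE 0.30).

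Cd200 was the exception among the ligands. Epithelial cells had 9.86, 9.997 and 9.80, above every gland B cell array and overlapping with gland T cells. The difference was 0.30 against B cells (SE 0.11, 1.23-fold, adjusted p = 0.0267) and -0.21 against T cells (95% interval -0.45 to 0.02, adjusted p = 0.11). Endothelial genes, which mark cells that also carry CD200, averaged 8.01 to 8.63 in the epithelial arrays and 3.16 to 4.18 in all lymphocyte arrays, with 8 of 8 called higher than in gland T cells and 7 of 8 higher than in gland B cells. Fibroblast genes averaged 5.88 to 6.39 and 3.28 to 3.54 (4 of 7 called higher against each, and 5 of 7 without epithelial replicate 1). The part of these cells in the Cd200 level, or in any other level read from the epithelial arrays, was not tested.

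The receptors were low in epithelium: Btla read 4.07, 2.86 and 2.67, Ctla4 5.40, 3.72 and 4.32, and Lag3 4.12, 4.00 and 4.12. Btla was 7.41 lower on the log2 scale than in B cells (SE 0.24) and Ctla4 1.71 lower (SE 0.28). Lag3 was 0.67 lower than in B cells, within the 2-fold minimum. Cd160 (5.39, 3.80 and 5.64) was called lower than in B cells (-1.22, SE 0.33), a call that ended without epithelial replicate 2 (-0.65) and with the mean of its probe sets (-0.12). Against T cells Cd160 was -0.88 and not called, but passed without epithelial replicate 1 (-1.11) or 3 (-1.23).

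Epithelial replicate 1 was the highest of its group for 6 of 9 members, and leukocyte markers (7 genes) averaged 8.99 in it, against 4.69 and 4.63. Its NK cell markers averaged 6.01 (2.50 and 2.37 in the others), its myeloid markers 6.16 (4.38 and 4.61) and its T cell markers 5.35 (3.42 and 3.34). Without it the log2 differences from B cells were -7.84 for Btla, -2.17 for Ctla4, -0.68 for Lag3 and -1.44 for Cd160. Cd274 was then 3.38 lower on the log2 scale than in B cells and 3.52 lower than in T cells, and Pdcd1lg2 was 4.44 and 5.10 lower. The Cd200 difference was 0.31 against B cells (adjusted p = 0.0461) and -0.20 against T cells. Havcr2 went from 0.04 to -0.56 against B cells (adjusted p = 0.04997, under 2-fold) and Pdcd1 from 0.09 to -0.12 (adjusted p = 0.592). The number of members called was then 5 against B cells and 8 against T cells.

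**Figure D4:**
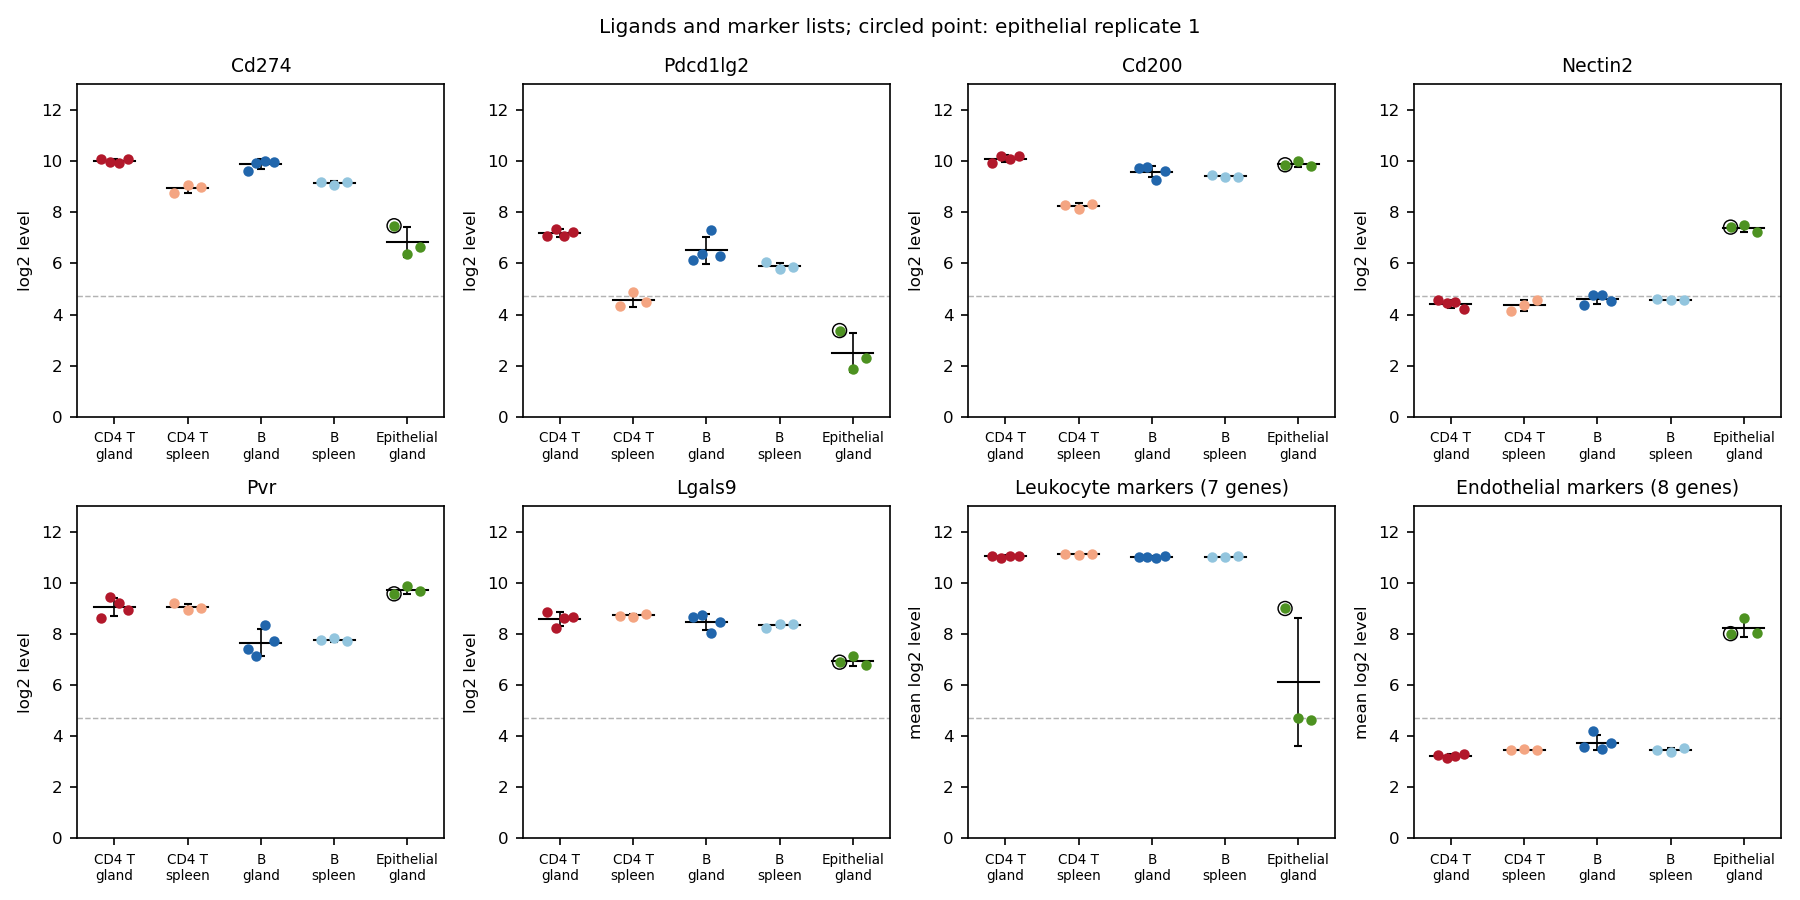
Log2 level (vertical axes) of 3 ligands, of Nectin2, Pvr and Lgals9, and of the mean of 2 marker lists in each array (points), by group, with group means (lines) and SD (bars); the dashed line is the median of the whole table. Epithelial replicate 1 (circled) has a leukocyte marker mean of 8.99, the endothelial marker mean is 8.01 to 8.63 in all 3 epithelial arrays, and Nectin2 is above every lymphocyte array in each of them.

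A further 20 genes encode counter-receptors and ligands around the members, and all were measured. In gland T cells 3 of 20 rose (Ceacam1, Icos and Lgals3) and 0 fell, and in gland B cells 2 rose (Rgmb and Cd86). Among all genes 5.35% were called higher and 1.62% lower in T cells, and 2.58% and 1.6% in B cells. The list medians were 0.04 and 0.08. Cd86, a ligand of CTLA-4 and CD28, was at 7.44, 7.63, 7.71 and 7.44 in gland B cells and 6.27, 6.55 and 6.66 in spleen B cells, separate groups with a difference of 1.06 (SE 0.29, adjusted p = 0.0182). The Cd86 call ended with the mean of its probe sets (0.78), without spleen B cell replicate 1 (0.95) and without replicate 2 (adjusted p = 0.0516). Cd80, the other CTLA-4 ligand, was between 4.17 and 5.34 in all arrays and was called in none of the comparisons.

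Icosl, the ligand of the costimulatory receptor ICOS, was at 11.13 to 11.47 in gland and 11.26 to 11.30 in spleen B cells, 4.33 above T cells in the gland (SE 0.14). Icos, high in follicular helper T cells, rose by 1.84 in gland T cells (SE 0.29, adjusted p = 0.000204). Ceacam1, a TIM-3 ligand, rose by 2.59 in gland T cells by its main probe set and by 0.60 by the mean of its probe sets, which is below the 2-fold minimum. By the main probe set it was at 4.50 to 6.07 in gland T cells and 9.51 to 9.89 in epithelium. Spleen T cells, at 2.36 to 2.72, were below the table's median. Rgmb, which binds PD-L2, rose by 1.26 in gland B cells by its main probe set and by 0.74 by the mean. It was at 5.14 to 5.51 in gland B cells, 3.98 to 4.28 in spleen B cells and 7.40 to 7.79 in epithelium. Epithelial genes were also raised in gland T and B cells, as given above. Their part in the Ceacam1 and Rgmb differences was not tested. Cd200r1 was not called between tissues (0.02 in T cells and 0.13 in B cells) and was lower in B than in T cells by 1.96 in the gland and 2.07 in the spleen.

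Epithelial cells were called higher than gland B cells for 16.2% of all genes and lower for 10.4%, and against gland T cells for 14.8% and 10.6%. Of the 20 genes above, epithelial cells were higher than gland B cells for 5 and lower for 5, and higher than gland T cells for 5 and lower for 7. Without epithelial replicate 1 these counts were the same, with Cd96 in place of Tnfrsf14 among those lower than in B cells; Nectin2 was then 2.77 and Pvr 2.13 above B cells, Cd276 2.81 and Cmtm4 3.59, and the differences were -1.52 for Lgals9 and -2.79 for Icosl. In all 3 arrays, Nectin2, a ligand of TIGIT and of the activating receptor DNAM-1 (Cd226), was at 7.42, 7.52 and 7.22 in epithelium and no higher than 4.76 in any lymphocyte array. It was higher than in B cells by 2.78 (SE 0.12, adjusted p = 1.29e-11) and than in T cells by 2.96. Pvr, another ligand of both, was at 9.56, 9.88 and 9.69, higher than in gland B cells by 2.06 (SE 0.23) and than in gland T cells by 0.66 (1.58-fold, adjusted p = 0.0205, within the 2-fold minimum). Cd276, an inhibitory member of the B7 family, was higher than in B cells by 2.59 (SE 0.14). Endothelial and fibroblast genes were also high in the epithelial arrays, as given for Cd200. The part of such cells in the levels of Nectin2, Pvr, Cd276 and Cmtm4 was not tested.

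Lgals9, a TIM-3 ligand, was lower in epithelium than in B cells by 1.54 on the log2 scale and than in T cells by 1.65. Tnfrsf14, which encodes HVEM, was lower than in T cells by 2.27 (SE 0.27) and than in B cells by 1.15, a call that ended without epithelial replicate 1 (-0.95) or 3 (-0.87). Icosl was 2.76 lower than in B cells and 1.57 higher than in T cells, the latter 0.61 by the mean of its probe sets. Cmtm4, which protects PD-L1 from degradation, was higher by 3.50 than in B cells and by 2.17 than in T cells. Cd226 itself was low everywhere (1.65 to 3.11) and was called in no comparison.

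Of 12 enzymes and adaptors that act below inhibitory receptors, 2 rose and 0 fell in gland T cells, beside 5.35% and 1.62% of all genes. Gland B cells were lower than gland T cells for 6 of the 12 and higher for 1 (Ptpn6, which encodes SHP-1), and epithelium was lower than B cells for 7 and than T cells for 10. The shares of all genes were 5.97% lower and 3.73% higher in gland B than T cells, and 10.4% and 10.6% lower in epithelium. Rnf128, the ubiquitin ligase GRAIL linked to T cell anergy, was at 7.96, 8.45, 8.41 and 8.27 in gland and 4.89, 5.44 and 4.96 in spleen T cells, the latter near the table's median. The groups were well separated, with a difference of 3.18 (SE 0.21, adjusted p = 1.85e-08). Rnf128 was also high in epithelium, at 9.96 to 10.08. Ptpn11, the phosphatase SHP-2 that binds PD-1, rose by 1.13 (SE 0.07, 2.18-fold, adjusted p = 1.52e-08). Only Rnf128 rose in gland B cells (1.19), with 0.95 by the mean of its probe sets, where 2.58% of all genes were called higher.

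Among 18 other inhibitory receptors and ectoenzymes, 4 rose and 2 fell in gland T cells, and 0 of 18 were called in B cells by limma (4 had an unadjusted p under 0.05). The shares of all genes were 5.35% higher and 1.62% lower in T cells, and 2.58% and 1.6% in B cells. Lilrb4a, a receptor with inhibitory cytoplasmic motifs, was at 8.75, 10.36, 9.36 and 9.01 in gland and 5.39, 5.72 and 4.51 in spleen T cells, a difference of 4.16 (SE 0.70, adjusted p = 0.000358). Nt5e and Entpd1, which encode the adenosine-forming enzymes CD73 and CD39, rose by 2.01 (SE 0.20) and 1.90 (SE 0.22), and Ceacam1 is described above. Klrg1, a receptor for cadherins, fell by 2.05 on the log2 scale (SE 0.22, adjusted p = 3.76e-06), and Pecam1, an adhesion molecule with inhibitory motifs, by 1.03. The list's median was 0.12.

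Of 16 measured transcription factor genes known to act on the receptor genes, 11 rose and 0 fell in gland T cells, with a median of 1.78, and 4 rose and 0 fell in gland B cells, with a median of 0.23. Among all genes 5.35% were called higher and 1.62% lower in T cells, and 2.58% and 1.6% in B cells. Bhlhe40 was at 10.59, 11.27, 10.99 and 10.77 in gland and 5.84, 5.56 and 5.87 in spleen T cells, a difference of 5.15 (SE 0.14), and rose by 1.53 in B cells. Maf, which acts with Prdm1 on receptor genes, rose by 2.93 in T cells (SE 0.18, adjusted p = 7.87e-09) and was at 2.43 to 3.09 in all B cell arrays.

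Nr4a1, Nr4a2 and Nr4a3 encode nuclear receptors induced by antigen receptor signals. Nr4a2 rose by 4.97 in T and 4.91 in B cells, and Nr4a1 by 2.72 and 4.33. Nr4a3 rose by 2.72 in B cells (SE 0.67, adjusted p = 0.0105, or 0.0519 when only B cell arrays were fitted). Gland B cell replicate 3 read 11.49, against 7.76 to 8.405 in the other gland B cell arrays and 5.95 to 6.48 in spleen B cells. In T cells Nr4a3 was not called (1.70, adjusted p = 0.0863). For Nr4a1 the change was smaller in T than in B cells (-1.61, SE 0.18, adjusted p = 1.55e-05), the opposite order to that of the 6 members above. Nr4a1 was also at 8.69 to 8.91 in epithelium, which came from the same digested glands. The part of the digestion in these values cannot be told apart from that of the tissue.

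**Figure D5:**
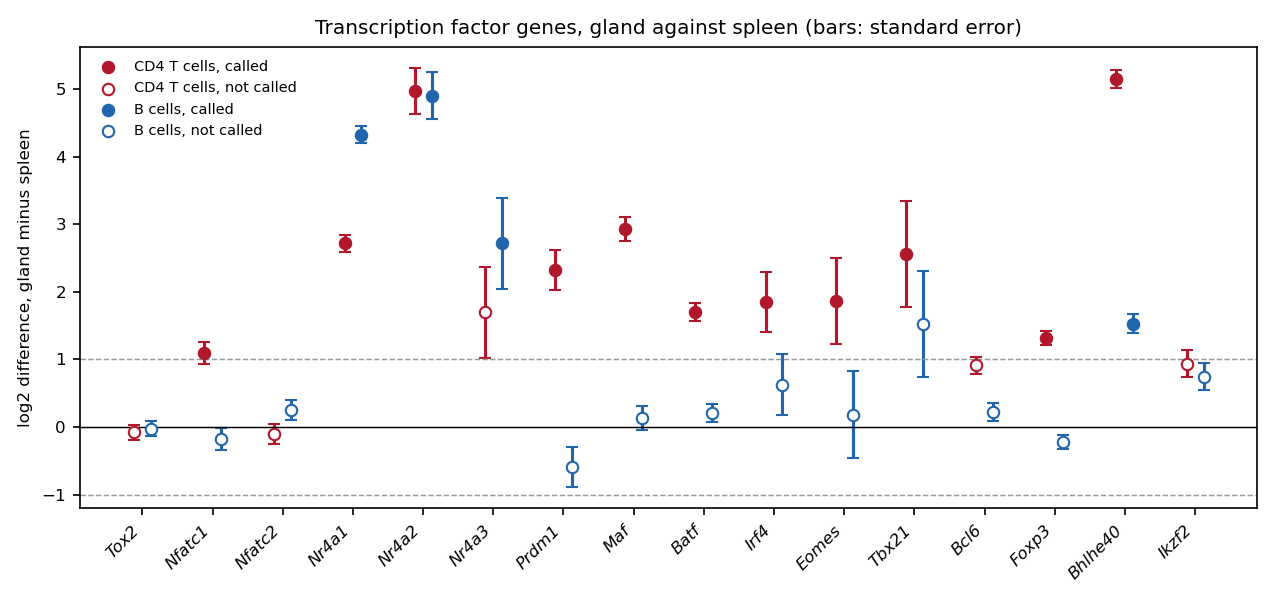
Log2 difference between gland and spleen (vertical axis) for 16 transcription factor genes in T cells (red) and B cells (blue), with standard errors; filled points passed the adjusted p and 2-fold rule, and dashed lines mark 2-fold. Nr4a1 and Nr4a2 rise in both cell types, and Bhlhe40 has differences of 5.15 in T cells and 1.53 in B cells.

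Of 13 measured regulators of PD-L1, 2 rose and 1 fell in gland T cells, beside 5.35% and 1.62% of all genes. Ifngr1, a chain of the interferon gamma receptor, rose by 1.33 (SE 0.17, adjusted p = 2.6e-05). Stat3, which carries cytokine signals to the nucleus, rose by 1.02, but by less than 2-fold without gland T cell replicate 2 (0.94), without spleen T cell replicate 1 (0.95) and by the mean of its probe sets (0.53). Myc, a growth regulator, was called lower (-1.21, adjusted p = 0.0142), a call that ended without gland T cell replicate 2 (-0.90) or spleen T cell replicate 2 (-0.96). In gland B cells 3 rose, Myc among them (1.65), and 0 fell, beside 2.58% and 1.6% of all genes. Irf1, an interferon-induced activator of Cd274, rose by 1.14 (SE 0.08, adjusted p = 1.57e-07), and Nlrc5, an activator of MHC class I genes, by 1.40 (SE 0.15).

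The genes nearest to a member were found as those with the smallest root mean square difference between centred group means over the 5 groups. Nearest to Pdcd1 were Nkg7 (0.24) and Cst7 (0.27), to Lag3 Vat1l (0.29) and Nts (0.32), and to Havcr2 Rph3a (0.12) and Stk32c (0.14). For Ctla4 they were Ptger2 (0.52) and Pdcd1 (0.61), and for Btla Cd37 (0.23) and Pou2af1 (0.38). Cd274 lay nearest to B4galt5 (0.19) and Samhd1 (0.22), and Pdcd1lg2 to Bcl2a1a (0.39), a gene with near-identical copies whose probe set is uncertain, and Evi2a (0.44). Cd160 and Cd200, whose group means spanned 1.93 and 1.85, were not ranked because less than 2 was taken as too narrow.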

How the data were processed

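Gene expression was measured with 1 array for each of 17 samples of 5 sorted groups. The deposited values are log2 levels. Per the submitters' processing notes they were made with Partek and RMA, a method that by design corrects background, normalizes quantiles and summarizes probes. That step was not redone from probe signals, and the scaling alternatives below acted on the deposited values. The number of arrays limits the precision. Probe sets were named from the platform annotation: of 45141, 28898 had 1 gene, 551 had several, 104 were controls and 15588 were not listed. The probe set with the highest mean represented each of 17097 genes. A mean for each group was fitted with limma 3.58.1 (R 4.3.3; lmFit and eBayes), and p-values were adjusted by Benjamini-Hochberg over all genes; a call needed an adjusted p under 0.05 and a fold change of at least 2. Tested on simulated data with a shift of 1.5, the fit recovered 95% of changed genes for T cells, 97% for B cells and 90% for their difference.

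Genes in the text are all members, the listed binding partners, and from each list at most 4 called genes, taken by size of change in each comparison; Foxp3, Prdm1, Irf4, Cd8a, Cd276, Cmtm4, Entpd1, Pecam1 and a few others were named beside counts after their values were seen. The members and lists were chosen with earlier results of these data known. No 2 arrays held identical values. Samples of the same replicate number deviated from their group means with correlations of -0.40 to 0.21 (2 of 31 pairs over 0.1). For samples of different numbers they were -0.29 to 0.41. With 3 or 4 arrays in a group, these correlations cannot decide whether a number marks shared animals. The labels do not state pairs, so the numbers were not taken as pairs. Alternatives were the fold minimum, a filter on dim genes, other probe sets, scaling, variance settings, array weights, a block, fewer groups and leaving out each array. A planned search of protein motifs was not run. In 3 samples, not matched to arrays, RNA integrity was lower.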

Additional observations from a re-analysis of the deposited data

Results flagged for a closer look

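Among the gland T and gland B groups of 4 arrays, 18 genes were examined for an array far from the others (36 tests, of which about 5% exceed the limit by chance). In gland T cells, Havcr2 was low in replicate 4 (5.18), Btla was high in replicate 2 (9.53), Cd80 was low in replicate 1 (4.62) and Cd200r1 was low in replicate 2 (4.53). Each gap to the nearest array was at least 0.836 of the group's range, above the limit for 4 values (Dixon's test).

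The gland difference was larger in T cells than in B cells by the test of the difference itself for 6 members. It was larger by 3.59 for Lag3 (adjusted p = 8.63e-10), 2.63 for Pdcd1 (adjusted p = 6.8e-06), 2.23 for Havcr2 (adjusted p = 0.00731), 2.01 for Pdcd1lg2 (adjusted p = 0.00528), 1.68 for Ctla4 (adjusted p = 0.0116) and 1.66 for Cd200 (adjusted p = 2.72e-06), each in log2 units from limma. In B cells Pdcd1 and Havcr2 lay below the table's median in both tissues, at levels not shown to be above background. Lag3 lay below the median in spleen B cells and near it in gland B cells, and Ctla4 lay near it in spleen B cells. These 6 calls held when any single array was left out.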

How the results depend on the processing

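Of 37 member differences called, 34 stayed called in every alternative; the exceptions were Cd160 and Cd274 in T cells and Cd160 in epithelium against B cells. Over 1134 refits for members, 1104 kept direction and call, 10 lost a call, 12 gained one and 8 changed sign. Leaving out single arrays gave 6 to 8 members called in T cells, 1 in B cells, 6 for their difference, 5 for B against T cells in each tissue, and 4 to 5 and 7 to 8 for epithelium against B and T cells.

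Without the fold minimum, genes called went from 1191 to 3995 (T cells), 714 to 3019 (B cells), 869 to 1731 (their difference), 1659 to 5196 (gland B against T), 1565 to 3843 (spleen), 4546 to 10897 (epithelium against B) and 4330 to 9955 (against T), and members called in B cells from 1 to 3 (Ctla4, Lag3 and Cd274). With all probe sets tested, calls were 1901 (T cells), 2599 (gland B against T), 2387 (spleen), 7638 and 7177 (epithelium).

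With the replicate block, members called stayed at 8, 1, 6, 5, 5, 5 and 7 and genes called at 1215, 730, 840, 1652, 1559, 4531 and 4321, in the same order. Under the block Havcr2 turned to -0.044 and Cd226 to 0.0049 in epithelium against B cells.

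Some differences that were not called in the main fit changed sign. With the mean of probe sets, T cell values were -0.014 (Cd80) and -0.034 (Pvr), and differences between T and B changes -0.14 (Cd80) and 0.16 (Cd200r1). Cd160 was then -0.83 in gland B against T cells (adjusted p = 0.00425 in limma, under 2-fold). Its probe sets other than 1456847_PM_at were called lower in B cells, as given above. Pvr in T cells was -0.0056 with centred arrays, -0.0083 with quantiles and -0.043 with array weights. Quantiles gave -0.0033 for Cd200r1 in T cells, -0.0032 for the Cd80 difference of changes and 0.028 for Cd226 in epithelium against B cells; array weights gave 0.074 for the Cd200r1 difference of changes and -0.21 for Havcr2 in epithelium against B cells. The cause of the sign changes other than that of Cd160 was not tested.

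Leaving out single arrays gave these ranges. In T cells they were -0.10 to 0.30 (Cd200r1), -0.054 to 0.16 (Nectin2), -0.12 to 0.15 (Pvr) and -0.046 to 0.15 (Tnfrsf14). In B cells they were -0.078 to 0.23 (Cd160), -0.022 to 0.18 (Cd80), -0.028 to 0.10 (Nectin2) and -0.34 to 0.063 (Pvr). For the difference of changes they were -0.24 to 0.17 (Cd200r1), -0.081 to 0.14 (Cd80), -0.079 to 0.14 (Nectin2) and -0.055 to 0.35 (Pvr). For epithelium against B cells they were -0.18 to 0.14 (Cd226), -0.56 to 0.36 (Havcr2) and -0.12 to 0.31 (Pdcd1), and for gland B against T cells -0.23 to 0.033 (Lgals9). Groups of 3 or 4 arrays and levels near the median of the table limit what small differences can show.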
